A study of Sus scrofa with 2 samples.

Results

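Plasma cells are the antibody-secreting end stage of the B cell lineage. Here they are the barcodes of pig endometrium in which JCHAIN, MZB1 and DERL3 each had at least 1 UMI (a counted RNA molecule) and together at least 20. They were chosen by these measured UMI counts. The rule found 153 of 25138 barcodes, 61 of 10045 in library 1 and 92 of 15093 in library 2. The libraries are droplet captures of transcript 3' ends from enzyme-digested endometrium, the lining of the uterus, of Yorkshire sows aged 3 years after successful artificial insemination. The design names 1 sow at day 7 (before receptivity, Pre-ER) and 1 sow at day 13 (receptive, ER), with tissue taken from each uterine horn and insemination as day 0. The sample labels say only endometrium1 and endometrium2 and tie neither to a day. The deposited matrices of library 1 and library 2 carry the names Pre-ER and ER, and the libraries are called by number here. Each group is 1 library from 1 animal, so nothing below has a replicate check, no difference between the libraries was tested, and animal, stage and library cannot be told apart.

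A plasma cell makes very large amounts of a single antibody, built from 1 heavy chain class and 1 light chain type. The chains enter the endoplasmic reticulum (ER) through the translocon, lose their signal peptide, are folded and joined by disulfide bonds and glycosylated, and leave for the Golgi. J chain, the product of JCHAIN, links dimeric IgA and pentameric IgM, the forms that epithelia carry onto mucosal surfaces such as that of the uterus. The transcription factors IRF4, PRDM1 and XBP1 maintain the secretory state, and the receptor TNFRSF17 (BCMA) receives survival signals.

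Library 1 held 45388759 UMIs and library 2 held 87514969. The plasma cells had 933851 and 1269018 of them, 2.06% and 1.45% of each library, from 0.607% (exact Clopper-Pearson 95% interval 0.465 to 0.779%) and 0.610% (0.492 to 0.747%) of the barcodes. Intervals here cover counting error only. A median plasma cell had 14636 UMIs in library 1 and 12659.5 in library 2, against 3415 and 4311 in the other barcodes. The range over plasma cells was 1838 to 34933 and 612 to 30225 UMIs. Of 48 barcodes that occur in both libraries, 0 were plasma cells in both, and 1 plasma cell barcode of library 1 also occurs in library 2. Scrublet, a doublet caller, marked 2 plasma cells of library 1 (3.28%) and 17 of library 2 (18.5%), against 11.1% and 16.3% of all barcodes. They were kept.

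The 3 genes of the rule are described and not tested. The median plasma cell had 417 and 267.5 UMIs of JCHAIN, 39 and 52.5 of MZB1 (an ER cochaperone of antibody assembly) and 3 and 5.5 of DERL3 (a part of ER-associated degradation). The threshold fell in a thin range, since the lowest cells inside it had 22 UMIs of the 3 genes in both libraries and the next had 46 and 25. Just outside were 8 and 11 barcodes with all 3 genes detected but 3 to 13 and 3 to 11 UMIs together. A further 21 and 12 barcodes reached 20 UMIs with a gene of the rule at 0, which was DERL3 in 21 and 11 of them. These stayed among the other barcodes and held up to 1314 and 1536 UMIs of the rule genes.

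The label was checked against the other given markers, POU2AF1 and FKBP11. POU2AF1, a B lineage transcriptional coactivator, stood at 218 CPM (the gene's UMIs scaled to a total of 1000000) in plasma cells and 1.19 CPM in the other barcodes of library 1. In library 2 it stood at 230 and 3.78 CPM. It was detected in 77.0% and 87.0% of plasma cells and in 0.311% and 0.770% of stromal barcodes, whose median depth was 4442 and 5457.5 UMIs. FKBP11, a peptidyl-prolyl isomerase of secretory cells, stood at 985 CPM against 123 CPM and at 779 CPM against 55.9 CPM. Both markers were higher in plasma cells of both libraries, and the name was kept. FKBP11 is less exclusive, since it was detected in 44.2% and 34.0% of stromal barcodes and in 100% and 98.9% of plasma cells.

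More than 50% of the plasma cells' UMIs came from 4 genes that have an identifier and no symbol in the deposited feature tables. They are called A (ENSSSCG00025049568), B (ENSSSCG00025011354), C and D here, and were chosen after their values were seen. The files pair none of them with a name, so what they encode is not stated. A took 32.4% of plasma cell UMIs in library 1 and 25.1% in library 2. B took 6.43% and 10.3%, C took 9.41% and 4.59%, and D took 7.22% and 11.1%. The 4 genes together took 55.5% and 51.0%. The other barcodes held A at 1590 and 287 CPM and the 4 together at 2942 and 603 CPM. Whether this came from free RNA or from plasma cells outside the rule was not tested. A was 204-fold and 873-fold higher in plasma cells, and D was 183-fold and 927-fold higher.

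Single plasma cells carried A or B, and most carried C or D, in an almost exclusive way. B was chosen as the partner of A because it was least often abundant in cells where A was. The split between A and B therefore describes that choice and is no separate finding. A cell was called led by the gene with at least 5 times the UMIs of the next. For the pair A and B, this gave 49 A-led and 12 B-led cells in library 1, 65 and 27 in library 2, and 0 cells without a leader. In A-led cells A took a median of 40.6% and 34.8% of all UMIs and B took 0.0835% and 0.0703%. In B-led cells B took a median of 36.8% and 36.9% and A took 0.0343% and 0.0116%. The per-cell plot of these genes shows the points lying along the axes.

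**Figure D1:**
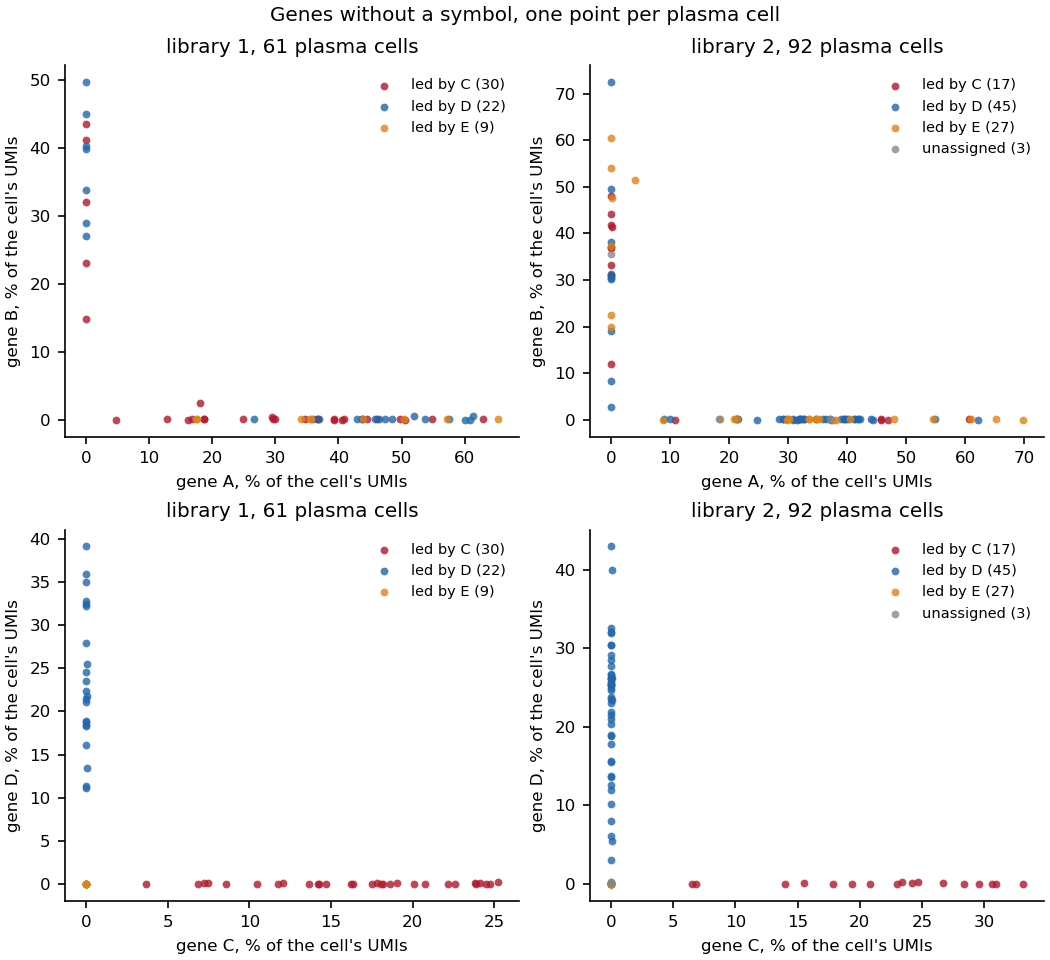
Each point is a plasma cell, at the share (%) of its UMIs taken by gene A (x axis) and gene B (y axis) in the upper panels and by gene C and gene D in the lower panels, for library 1 on the left (61 cells) and library 2 on the right (92 cells). Colours give the leading gene of C, D and E, and the points lie along the axes, so that a cell with much of 1 gene of a pair has little of the other. B was chosen as the partner of A by this pattern.

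Most cells with little of C and D were led by another gene without a symbol, called E. It was taken after its values were seen, as the gene most raised in those cells. C led 30 cells of library 1 (49.2%, 36.1 to 62.3%) and 17 of library 2 (18.5%, 11.1 to 27.9%). D led 22 (36.1%, 24.2 to 49.4%) and 45 (48.9%, 38.3 to 59.6%). E led 9 (14.8%, 6.98 to 26.2%) and 27 (29.3%, 20.3 to 39.8%), and 0 and 3 cells had no leader. The interval of the C-led share in library 2 lay below that in library 1, and those of the D-led and E-led shares overlapped. C took a median of 17.7% and 23.4% of the UMIs of C-led cells, and D took 22.1% and 24.7% of those of D-led cells. E took a median of 0.709% and 0.910% in E-led cells, with a highest cell at 1.20% and 19.1%.

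Each of C and D occurred with A and with B. In library 1, A-led cells were 25 C-led, 15 D-led and 9 E-led, and B-led cells were 5 C-led, 7 D-led and 0 E-led. In library 2, A-led cells were 7 C-led, 36 D-led and 20 E-led, and B-led cells were 10 C-led, 9 D-led and 7 E-led. C-led cells were thus mostly A-led in library 1 and more often B-led in library 2, in counts of at most 25 cells.

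JCHAIN differed with the leading gene. It took a median of 5.05% of the UMIs of C-led cells in library 1 (range 0.485 to 11.4%), 1.17% of D-led cells (0.136 to 5.56%) and 4.87% of E-led cells (1.86 to 10.5%). In library 2 the medians were 6.89% (1.91 to 11.4%), 0.626% (0.0198 to 4.01%) and 5.30% (0.952 to 12.5%). The D-led median was the lowest in both libraries, and the ranges overlapped. JCHAIN reached 2% of the UMIs in 28 of 30 and 16 of 17 C-led cells, 3 of 22 and 6 of 45 D-led cells, and 8 of 9 and 24 of 27 E-led cells. JCHAIN is a gene of the rule, which can leave out cells with little of it.

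**Figure D2:**
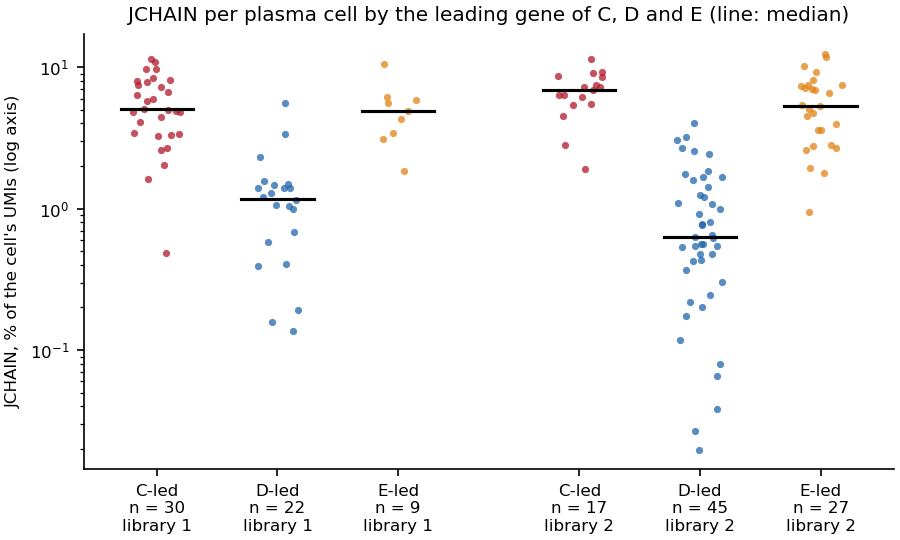
JCHAIN as a share (%) of each plasma cell's UMIs on a log axis, by the leading gene of C, D and E in library 1 (left) and library 2 (right), with points for cells and black lines for medians. D-led cells have the lowest median in both libraries, 1.17% and 0.626%, and their ranges overlap those of the others.

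Across the transcriptome, genes outside the rule were compared as pooled CPM in plasma cells and in the other barcodes of the same library. A gene entered with a mean of at least 20 CPM over both pools in each library, and was called at 2-fold in both libraries. A gene nearly absent from the other barcodes could enter only through plasma cells, and its call as higher was then fixed by the filter. Of 5008 genes, 105 were higher (2.1%) and 2909 lower (58.1%), and 68 of the 105 have a symbol. CPM over all genes is low for the rest by construction, since A to D took 55.5% and 51.0% of the plasma cell UMIs. The median gene lay at -1.53 and -1.24 on the log2 scale. When CPM was taken over genes with a symbol without the rule genes, the medians moved up by 1.36 and 1.15 to -0.18 and -0.09. On that scale, 341 genes were higher (6.81%) and 467 lower (9.33%). Values below are CPM over all genes unless the symbol scale is named.

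Genes of ER entry were high in plasma cells. In the list of translocon and signal peptide processing, 9 of 20 genes that entered were higher in both libraries and 1 was lower, with medians of 0.91 and 1.12. On the symbol scale 15 were higher and 0 lower. SEC11C, a catalytic subunit of the signal peptidase, stood at 922 CPM against 68.3 CPM in library 1 and 690 CPM against 64.7 CPM in library 2. Its log2 ratios were 3.75 (3.64 to 3.86) and 3.41 (3.31 to 3.52). Its paralog SEC11A was the lower gene, at 78.2 CPM against 242 CPM and 85.1 CPM against 206 CPM. The catalytic subunits thus lay on opposite sides of the other barcodes in both libraries. SEC11A was within 2-fold on the symbol scale, at -0.27 and -0.13. The signal peptidase subunits SPCS1, SPCS2 and SPCS3 had log2 ratios of 1.83, 1.67 and 1.71 in library 1 and 2.09, 1.77 and 1.36 in library 2. SSR4, of the translocon-associated complex, stood at 2103 CPM against 832 CPM and 1297 CPM against 257 CPM. The translocon channel genes SEC61B (1.19 and 1.19) and SEC61A1 (0.84 and 1.31) were nearer to the threshold. HM13, the signal peptide peptidase, was higher by 1.44 and 1.40.

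Folding genes gave the largest count. Of 21 ER chaperone and disulfide genes that entered, 11 were higher in both libraries and 1, QSOX1, was lower, with medians of 1.36 and 1.02. The list and its higher genes include SPCS2, a signal peptidase subunit that is also counted in the translocon list. On the symbol scale 17 were higher. SDF2L1, a partner of ER chaperones, stood at 531 CPM against 17.9 CPM and 355 CPM against 34.3 CPM. PRDX4, the ER peroxiredoxin, stood at 1093 CPM against 166 CPM and 1518 CPM against 105 CPM. The disulfide isomerase PDIA4 stood at 862 CPM against 131 CPM and 626 CPM against 68.8 CPM. These 3 genes exceeded the other barcodes by log2 ratios of 2.72 to 4.89. The cochaperones DNAJB11 (2.53 and 2.34) and the thioredoxin TXNDC11 (2.29 and 2.13) were also higher, as was MANF (1.79 and 1.37), a secreted ER stress factor. HSPA5 (BiP), the main ER chaperone, was past 2-fold in library 1 (1.54) and not in library 2 (0.66). However, 3 cells held 392 of its 967 UMIs in library 1 and 128 of its 812 in library 2. The top 3 cells of library 1 also held 189 of 496 UMIs of SDF2L1, 223 of 805 of PDIA4 and 153 of 474 of MANF. P4HB (0.30 and 0.39), CALR (0.54 and 0.75) and CANX (-0.23 and -0.48), which serve secretion in many cell types, were within 2-fold. Scaled to symbol genes, HSPA5 (2.90 and 1.81), P4HB (1.66 and 1.54) and CALR (1.89 and 1.90) were past 2-fold in both libraries, and CANX in library 1 (1.12) and not in library 2 (0.67).

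In N-glycosylation, 3 of 16 genes were higher in both libraries and 2 lower, with medians of 0.06 and 0.58. By the symbol scale 9 were higher and 0 lower. The higher genes were RPN2 (1.22 and 1.17) and OSTC (1.02 and 1.82), of the oligosaccharyltransferase, and the mannosidase MAN1A1 (1.72 and 1.08). The lower genes included TUSC3, an alternative oxidoreductase subunit of the transferase, at 6.43 CPM against 63.8 CPM and 57.5 CPM against 246 CPM, and -1.96 and -0.94 on the symbol scale. In ER-associated degradation and the unfolded protein response, 3 of 13 were higher and 2 lower, and 8 were higher and 2 lower on the symbol scale. HERPUD1 stood at 539 CPM against 155 CPM and 668 CPM against 279 CPM, UBE2J1, of the same pathway, stood at 106 CPM against 37.5 CPM and 154 CPM against 40.5 CPM, and SYVN1, a ubiquitin ligase of the pathway, 1.07 and 1.27. The stress transcription factors ATF3 (-2.72 and -2.43) and CEBPB (-2.70 and -2.19) were the lower ones. In ER to Golgi transport 1 of 25 genes was higher, LMAN1, a cargo receptor, with 1.88 and 1.87, and 13 were higher on the symbol scale.

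**Figure D3:**
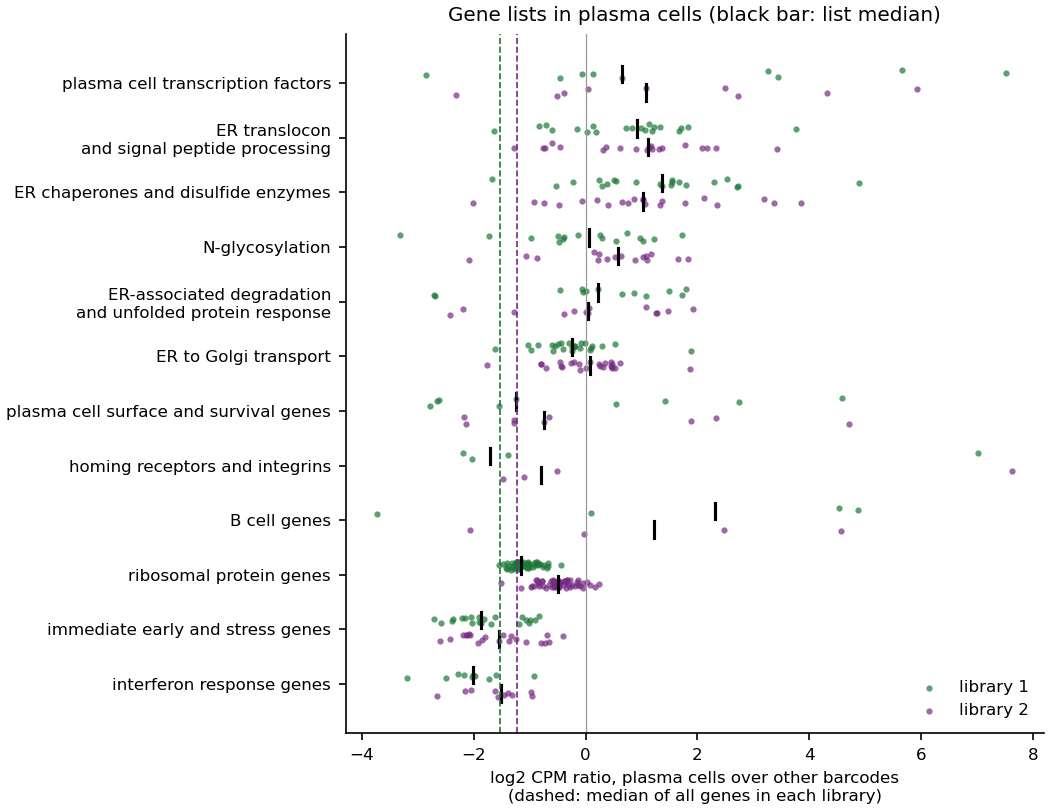
Log2 ratio of CPM in plasma cells over the other barcodes (x axis) for the genes of 12 lists that entered (rows), with library 1 in green and library 2 in purple, black bars for list medians and dashed lines for the medians of all genes, -1.53 and -1.24. The medians of the ER lists lie right of the dashed lines, and those of stress and interferon genes lie to their left.

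Of 9 plasma cell transcription factors and partners that entered, 4 were higher in both libraries. Besides POU2AF1 these were IRF4, at 138 CPM against 2.74 CPM and 121 CPM against 6.09 CPM, and IKZF3, at 43.9 CPM against 4.03 CPM and 71.7 CPM against 10.8 CPM. The fourth was TENT5C, a poly(A) polymerase that stabilises secretory mRNAs, at 507 CPM against 52.6 CPM and 427 CPM against 75.6 CPM. POU2AF1, IRF4 and IKZF3 entered only through plasma cells, so their calls as higher were fixed by the filter. XBP1 stood at 292 CPM against 187 CPM and 400 CPM against 191 CPM, log2 ratios of 0.65 and 1.07, and 2.00 and 2.22 on the symbol scale. PRDM1 stood at 69.6 CPM against 63.4 CPM and 81.2 CPM against 116 CPM, log2 ratios of 0.13 and -0.51, and 1.49 and 0.64 on the symbol scale. It was detected in 59.0% and 62.0% of plasma cells and in 23.6% and 44.8% of stromal barcodes. ZBTB20 was the lower gene (-2.86 and -2.32).

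Surface genes included several that were nearly absent elsewhere. CCR10, the receptor for CCL28 that draws IgA plasma cells to mucosae, stood at 132 CPM against 1.01 CPM and 73.3 CPM against 0.37 CPM. It was detected in 60.7% and 38.0% of plasma cells and in 0.456% and 0.257% of stromal barcodes. TNFRSF13B (TACI), a receptor for BAFF and APRIL, stood at 112 CPM against 4.66 CPM and 125 CPM against 4.78 CPM. TNFRSF17, the receptor for APRIL, stood at 106 CPM against 0.38 CPM and 32.3 CPM against 0.21 CPM, and did not pass the filter on the mean of both pools. SLAMF7, at 22.5 CPM against 1.24 CPM and 65.4 CPM against 3.81 CPM, did not pass it either. SDC1 (CD138), the usual surface marker, stood at 30.0 CPM against 20.7 CPM and 56.0 CPM against 15.2 CPM, past 2-fold in library 2 with 1.88. It was past 2-fold in both on the symbol scale, with 1.89 and 3.03. Of 9 surface and survival genes that entered, 2 were higher (TNFRSF13B and CD48) and 4 lower (BCL2, MCL1, IL6ST and CD9), where 58.1% of all genes were lower. Scaled to symbol genes, 3 were higher, with SDC1 added, and CD9 was the 1 lower (-1.26 and -1.03). BCL2 (-1.42 and -0.14), MCL1 (-0.19 and -0.13) and IL6ST (-1.30 and -0.99) were not called there. TNFRSF13B and CCR10 entered only through plasma cells, so their calls as higher were fixed by the filter. Of 4 homing genes, CCR10 was higher and S1PR1 and ITGB1 were lower. Scaled to symbol genes, 0 were lower, with S1PR1 at -0.83 and -0.34.

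Of 4 genes of mature B cells that entered, 2 were higher and 1 lower in both libraries, where 58.1% of all genes were lower. On the symbol scale 3 were higher and 0 lower. CD79A and CD79B, the signalling chains of the B cell receptor, were higher than in the other barcodes. CD79A stood at 49.3 CPM against 1.69 CPM and 184 CPM against 7.73 CPM. It entered only through plasma cells, so its call as higher was fixed by the filter. MS4A1 (CD20) had 2 and 14 UMIs in all plasma cells, PAX5 had 0 and 2, and CXCR5 had 0 and 1. Other genes of the list were present. EBF1 had 9 and 225 UMIs, in 7 of 61 and 30 of 92 plasma cells. RALGPS2 was detected in 23 of 30 C-led, 17 of 22 D-led and 8 of 9 E-led cells of library 1. In library 2 it was detected in 12 of 17, 41 of 45 and 24 of 27 cells. In library 2, 132 barcodes met a rule for B cells that used MS4A1, CD79A, CD79B and PAX5 among its genes. Their levels stand beside those of plasma cells as a description, since library 1 had 6 such barcodes and A took 22.6% of their UMIs. POU2AF1 (218 CPM in B cells and 230 CPM in plasma cells) and IRF4 (114 and 121 CPM) were near in level. SEC11C (52.2 and 690 CPM), FKBP11 (36.4 and 779 CPM), XBP1 (111 and 400 CPM) and TNFRSF13B (42.7 and 125 CPM) were higher in plasma cells. SLA-DMA, of antigen loading on MHC class II (163 and 20.5 CPM), CXCR4 (408 and 48.9 CPM) and CD40 (155 and 15.8 CPM) were higher in B cells. CCR10 had 0 CPM in these B cells.

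Stress and interferon genes were low in CPM and near the median gene. Of 21 immediate early and stress genes, 0 were higher and 16 lower in both libraries, with medians of -1.87 and -1.55 beside -1.53 and -1.24 over all genes. On the symbol scale 2 were lower. FOS stood at 577 CPM against 2151 CPM and 1001 CPM against 4346 CPM. Of 10 interferon response genes, 7 were lower, and 1 on the symbol scale. Of 59 ribosomal protein genes, 2 were lower, with medians of -1.15 and -0.49, which became 0.21 and 0.66 on the symbol scale.

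RNA of other cell types was present in plasma cells, with each list summed lower than in the other barcodes. The stromal list (7 of 9 genes with a symbol) summed to 2496 CPM in plasma cells against 24574 CPM elsewhere in library 1, and 1240 CPM against 5457 CPM in library 2. A single plasma cell held 361 to 18667 CPM and 0 to 16229 CPM of it. The epithelial list (9 of 14 genes) summed to 91.0 CPM against 742 CPM and 3979 CPM against 23890 CPM, and a single plasma cell held 0 to 969 CPM and 520 to 55333 CPM of it. ACP5, the gland product uteroferrin, stood at 10.7 and 1175 CPM, and was detected in 98.9% of plasma cells and 97.8% of stromal barcodes of library 2. Macrophage genes (8 of 13) summed to 28.9 CPM against 254 CPM and 17.3 CPM against 265 CPM. T and NK cell genes (10 of 20) summed to 43.9 CPM against 183 CPM and 89.8 CPM against 378 CPM. Among these, CD247 had the most UMIs in plasma cells, 14 and 60, and CD3G was at 0 UMIs in both libraries. At least 20 UMIs of COL1A1, COL3A1 and DCN together occurred in 11 and 9 plasma cells. The part of such RNA in the results was not tested.

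A few plasma cells carried genes of cell division. At least 20 UMIs of the dividing list (14 of 20 genes with a symbol) occurred in 8 plasma cells of each library, 13.1% and 8.70%, against 2.45% and 5.31% of the other barcodes. These shares are not matched for depth, and the dividing plasma cells had a median of 21684.5 and 18427 UMIs. Their MZB1 counts were 64 to 212 and 17 to 147 UMIs. UBE2C, a cyclin-degrading ubiquitin enzyme, had 131 and 86 UMIs, of which 120 and 74 lay in 3 and 4 cells. The dividing cells were 6 C-led and 2 E-led in library 1, and 4 D-led, 3 E-led and 1 without a leader in library 2.

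The leading gene was next used to compare plasma cells within each library, with CPM on the symbol scale. Of 1369 genes, 4 were at least 2-fold higher in both C-led and E-led than in D-led cells of both libraries (0.292%), and 2 were lower (0.146%). The higher genes were TNFRSF17, CCR10, NUPR1 and SBNO1, and the lower genes SERPINE2 and CLDN5. The cells of a class share a library and are not replicates.

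TNFRSF17 was almost missing from D-led cells. In library 1 it stood at 489 CPM in C-led (95% Poisson interval 390 to 605), 33.9 in D-led (4.10 to 122) and 369 in E-led cells (196 to 631). In library 2 it stood at 245 (143 to 392), 5.25 (0.133 to 29.3) and 157 (97.1 to 240) CPM. It was detected in 24 of 30, 2 of 22 and 8 of 9 cells, in 11 of 17, 1 of 45 and 13 of 27 cells, and in 0.104% and 0.114% of stromal barcodes. The intervals of D-led cells overlapped neither of the others in either library. With 2 and 1 UMIs in D-led cells, the log2 ratio of C-led over D-led cells had intervals of 1.95 to 6.92 and 2.87 to 10.9.

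CCR10 had the same order. It stood at 570 CPM in C-led, 169 in D-led and 426 in E-led cells of library 1, and at 432, 89.3 and 329 CPM in library 2. C-led cells were 3.37-fold and 4.84-fold above D-led cells. TNFRSF13B stood at 460, 220 and 369 CPM and at 605, 200 and 523 CPM, 2.09-fold and 3.03-fold higher in C-led than in D-led cells, and missed the count because E-led cells were 1.67-fold higher in library 1. NUPR1, a stress-induced chromatin protein, stood at 303, 119 and 539 CPM and at 1658, 137 and 627 CPM. SBNO1 rested on 3 UMIs in D-led cells of library 1, and its C-led ratio there was under 2-fold (log2 0.96) without the cell with the most of it in each class. TNFRSF17, TNFRSF13B and CCR10 were thus lowest in the class with the lowest JCHAIN median. For CCR10 in library 1, the interval of D-led cells (81.3 to 312) overlapped that of E-led cells (238 to 702). For TNFRSF13B there, it (117 to 377) overlapped those of C-led (364 to 573) and E-led cells (196 to 631). In library 2 the D-led intervals of both genes overlapped neither of the others.

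SDC1 ran the other way, at 87.3, 169 and 85.1 CPM and at 72.1, 268 and 105 CPM in C-led, D-led and E-led cells. The intervals of SDC1 in D-led cells overlapped the others in library 1 and not in library 2. XBP1 was highest in D-led cells of library 1 (809, 1745 and 880 CPM) and close in level in library 2 (1196, 1339 and 1180 CPM). SERPINE2, a serine protease inhibitor, stood at 69.9, 254 and 56.8 CPM and at 159, 467 and 112 CPM. Its value in E-led cells of library 1 rested on 2 UMIs. The interval there (6.87 to 205) overlapped that of D-led cells (142 to 419). CLDN5, an endothelial tight junction gene, rested on few cells, since 1 cell held 45 of its 63 UMIs in library 2. Without the cell with the most CLDN5 in each class, C-led cells were above D-led cells there (log2 0.99).

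**Figure D4:**
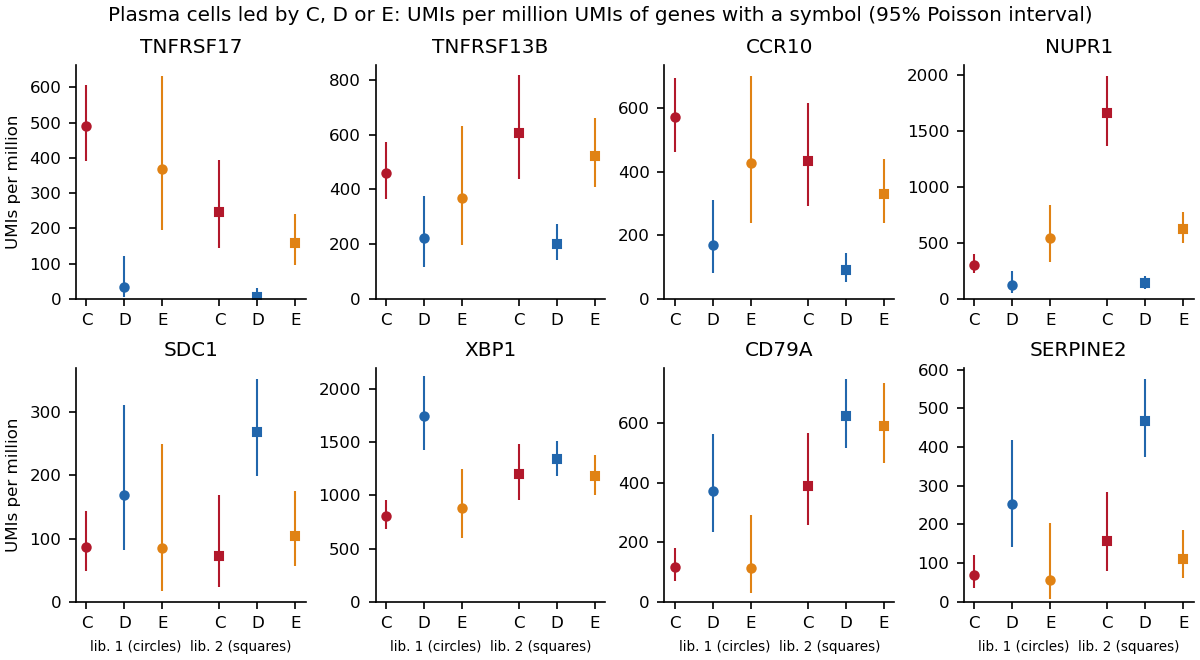
CPM on the symbol scale (y axis, UMIs scaled to those of genes with a symbol, from 0) for 8 genes in C-led, D-led and E-led plasma cells (x axis), with circles for library 1, squares for library 2 and bars for 95% Poisson intervals. TNFRSF17 stands at 33.9 and 5.25 in D-led cells and between 157 and 489 in C-led and E-led cells.

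Depth and stromal RNA also differed by class. The median cell had 18497 UMIs in C-led, 14014 in D-led and 11099 in E-led cells of library 1, and 14148, 12811 and 10221 in library 2. At least 20 stromal UMIs occurred in 9 C-led, 1 D-led and 1 E-led cell of library 1, and in 4, 1 and 4 of library 2. Scrublet marked 2 C-led cells of library 1, and 3 C-led, 12 D-led and 2 E-led cells of library 2. The log2 ratio of CCR10 in C-led over D-led cells was 1.98 and 3.06 without the cells with stromal UMIs, and 1.83 and 2.34 without the called doublets. That of TNFRSF17 was 3.88 in library 1 without the cells with stromal UMIs, and 3.34 and 3.66 without the called doublets.

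Finally, plasma cells of library 2 were set against those of library 1. A gene entered with a mean of at least 40 CPM over both. Of 2016 genes, 568 were at least 2-fold higher in library 2 (28.2%) and 155 lower (7.69%). On the symbol scale these were 495 (24.6%) and 210 (10.4%). The split depended on the scaling, with 384 higher and 353 lower by TMM, and 385 and 284 after each barcode was thinned to 1000 UMIs. The median ratio of all genes was 0.28 in plasma cells and 0.02 in the other barcodes.

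The largest ratios included genes that were also higher in the other barcodes of library 2. PDE4B, a cAMP phosphodiesterase, had 6 UMIs (6.43 CPM) in plasma cells of library 1 and 636 UMIs (501 CPM) in those of library 2. The log2 ratio was 6.29 (5.16 to 7.74) in plasma cells and 2.19 elsewhere. PDE4B was detected in 6 of 61 and 76 of 92 plasma cells and in 11.2% and 44.0% of stromal barcodes. RGS1, a regulator of G protein signalling in lymphocytes, stood at 19.3 and 512 CPM, with ratios of 4.73 in plasma cells and 1.27 elsewhere. ANKRD33B had 1 UMI in library 1 and stood at 103 CPM in library 2, with ratios of 5.01 (4.09 to 11.9) and 1.14. RASSF3 had ratios of 3.40 and 1.07. For these 4 genes the other barcodes' ratio lay below the interval of plasma cells.

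For KDM5B, a histone demethylase, the ratio was 4.93 (4.34 to 5.60) in plasma cells and 3.99 elsewhere. AGPAT2, with 3 UMIs in library 1, had 5.31 (3.74 to 7.61) and 3.46. For these genes too the ratio elsewhere lay below the interval, by less. The others were nearer, as ATXN1 had 4.23 and 3.86, ANKRD44 had 4.14 and 3.41, TMCC1 had 3.73 and 3.02, and LY6E had 3.41 and 2.87. Of 18 immediate early and stress genes that entered, 9 were higher in library 2, with a median of 0.93 in plasma cells and 1.04 elsewhere.

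Some genes lower in library 2 were set apart from the other barcodes and some were not. CCDC50, an adaptor of ubiquitin signalling, stood at 186 and 26.0 CPM, with ratios of -2.84 (-3.42 to -2.30) in plasma cells and -0.87 elsewhere. Within classes, on the symbol scale, it stood at 832, 119 and 681 CPM in C-led, D-led and E-led cells of library 1. In library 2 these values were 130, 47.3 and 82.1 CPM. The chemokine CCL4 stood at 153 and 25.2 CPM, with ratios of -2.60 and 0.42, but 3 cells held 105 of its 143 UMIs in library 1. TNFRSF17 had ratios of -1.71 (-2.28 to -1.18) in plasma cells and -0.87 (-1.91 to 0.17) elsewhere. The latter rests on 17 and 18 UMIs, and its interval holds the plasma cell ratio. On the symbol scale, TNFRSF17 stood at 489 and 245 CPM in C-led cells, with intervals that overlapped only at their ends (390 to 605 and 143 to 392). Its intervals in E-led cells of the libraries overlapped. SNRPE (-2.23), RPLP2 (-1.99), COX7B (-1.99), COX7A2 (-1.81), RPL17-C18orf32 (-1.76), SNRPG (-1.72) and RPL37A (-1.69), of splicing, ribosome and respiratory chain, were lower by about as much or more elsewhere, at -1.91 to -2.38. Of 58 ribosomal protein genes, 26 were lower, with medians of -0.82 in plasma cells and -1.49 elsewhere.

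**Figure D5:**
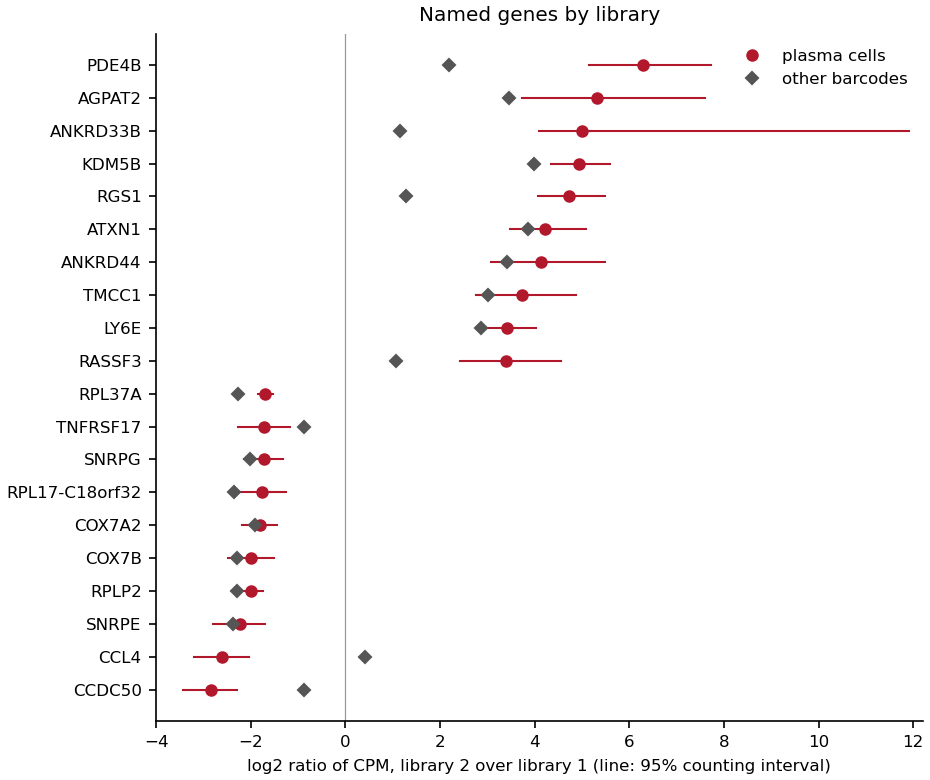
Log2 ratio of CPM in library 2 over library 1 (x axis) for the 20 named genes (rows), with red circles and 95% counting intervals for plasma cells and grey diamonds for the other barcodes. The diamonds of PDE4B, AGPAT2, ANKRD33B, KDM5B, RGS1, RASSF3, TNFRSF17 and CCDC50 lie outside the interval on the side of 0, and that of CCL4 lies past 0 at 0.42. The diamond of TNFRSF17 rests on 17 and 18 UMIs.

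The counts of secretory genes past 2-fold between the libraries varied by list, where 28.2% of all genes were higher in library 2 and 7.69% lower. Of 20 ER chaperone and disulfide genes 1 was higher and 2 lower in library 2, with a median of -0.30, and of 21 translocon genes 1 was higher and 2 lower, with a median of -0.07. Of 15 N-glycosylation genes 3 were higher and 2 lower, and of 21 ER to Golgi genes 4 were higher and 1 lower. Of 13 genes of ER-associated degradation and the unfolded protein response, 1 was higher and 0 lower. SEC61B stood at 896 and 381 CPM (-1.23, and -1.23 elsewhere). CD79A stood at 49.3 and 184 CPM, with ratios of 1.90 in plasma cells and 2.20 elsewhere. Of 8 transcription factors and partners, 0 passed 2-fold in either direction.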

How the data were processed

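Per the file headers the deposited UMI counts per gene were made with Cell Ranger 6.1.0, and the submitters' processing notes give 2.1.1. Genome build and intron counting were not given in the sources used here. Of 26881 genes, 16128 lack a symbol in the deposited feature tables. Rows sharing a symbol were summed, and paralogs that counting could split are uncertain.

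The members, the gene lists and the comparisons were chosen with earlier results of these data known, and genes A to E and their classes after their values were seen. Groups came from the sample titles. UMIs were pooled over cells as CPM, with exact Poisson 95% intervals for levels and conditional binomial ones for ratios, in which counts below 3 became 3. With 1 library per group no test was made, and cells were not used as replicates. Depth was 45388759 and 87514969 UMIs. The calling steps were tested on simulated data.

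The rule for named genes took list members that entered, the 20 symbol genes with the largest smaller ratio over the other barcodes among those at 100 CPM in plasma cells of each library, and the 10 highest and 10 lowest library ratios. For the last, plasma cells had to reach 100 CPM, and 50% of the CPM elsewhere, in the library with more. B cells had at least 2 genes of a short list of B cell genes and 4 UMIs of them, T or NK cells 4 UMIs of CD3D, CD3G and NKG7, and stroma 20 UMIs of COL1A1, COL3A1 and DCN. Scrublet ran in scanpy 1.11.5. Alternatives were other rule thresholds, barcode filters, doublets left out, other scalings (TMM in edgeR 4.0.16), weights and expression filters, thinning to 1000 UMIs, and B, T or NK cells as the comparison.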

Additional observations from a re-analysis of the deposited data

Results flagged for a closer look

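Among 269 list and named genes that entered, 2 were at least 2-fold apart from the other barcodes in opposite directions in the 2 libraries, on CPM over all genes, and neither difference was tested. RGS1 was below the other barcodes in library 1 (log2 ratio -1.16) and above them in library 2 (2.30). EDEM3, an ER degradation enhancer, was above them in library 1 (1.73) and below them in library 2 (-1.28). EDEM3 stood at 92.1 and 128 CPM in plasma cells, and at 27.8 and 311 CPM in the other barcodes. On the symbol scale neither gene was 2-fold apart in opposite directions, with RGS1 at 0.20 and 3.45 and EDEM3 at 3.08 and -0.13. On CPM over all genes, EDEM3 in library 2 lay near the median gene, which was at -1.24.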

How the results depend on the processing

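No paired analysis was possible because each group is 1 library, and for the same reason no replicate could be left out. The promoter motif search was not run, since no promoter sequences were used here. The shares of plasma cells and of the C-led, D-led and E-led classes moved by less than their intervals under every alternative run for them. The count of genes higher in both libraries (105) was 341 on the symbol scale, 279 with TMM, 83 after thinning, 228 with no filter, 37 with a filter 5 times higher and 35 against B cells, of which 105, 105, 68, 105, 37 and 27 were among the 105. The counts higher and lower in library 2 (568 and 155) were 2996 and 994 with no filter and 30 and 54 with the higher filter, where more or fewer genes were tested. Lower counts were 284 after thinning and 353 with TMM, and 385 and 384 were higher. With doublets left out they were 417 and 171. For the other moves the cause was not tested.

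In library 1, the median of surface and survival genes turned to 0.11 on the symbol scale, 0.23 with TMM and 0.53 with no filter, that of ribosomal genes to 0.21 and 0.33 under both scalings, and that of antigen presentation to 0.066 with TMM. After thinning, the B cell list stood at -0.0658 in library 1 and COX7A2 at 0.024. Against B cells (6 and 132 barcodes), the B cell list stood at -2.52 and -1.90, CD79A at -2.52 and -0.56, CD79B at -2.65 and -2.44, CD48 at -2.36 and -1.49, IKZF3 at -1.52 and -0.94, RAC2 at -1.50 and -0.78 and TXNDC11 at -0.15 in library 1. Against T or NK cells, RAC2 stood at -2.36 and -1.29, IKZF3 at -1.52 and -1.02, CD48 at -1.33 and -0.56 and UBE2C at -0.12 in library 2. CLDN5 in library 2 turned to 1.44 (C-led over D-led) and 0.18 (E-led over D-led) without called doublets, and to 0.99 and 0.15 without its highest cells. The 61 and 92 cells limit the classes most, where D-led cells held 2 and 1 UMIs of TNFRSF17.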
